A study of Homo sapiens with 6 samples.

Results

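Transcripts of 9 genes of the germinal centre to plasma cell transition were followed in L428 cells, an established Hodgkin lymphoma line. The genes are the regulators PRDM1 and BCL6, the secretory cell genes ELL2, JCHAIN and MZB1, and the surface markers TNFRSF17, CD27, CD38 and SDC1. They were taken as a named list, with every probe set that the platform annotation gives to that gene alone, and so comprised 9 of 18244 measured genes and 24 of 49393 probe sets. A group of 3 arrays came from cells nucleofected with 3 µg of an siRNA against BATF3 (s195280), and the other group of 3 arrays from cells given the same amount of Negative Control No. 1 siRNA. All cells were cultured for 48 hours after nucleofection, in RPMI1640 with 10% FCS. The design has a single BATF3 siRNA, a single cell line and a transient knockdown. Nothing in the labels says that the replicates were separate cultures, so the tests reflect spread among arrays that may be only technical.

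In a germinal centre B cell, BCL6 represses the genes of terminal differentiation, and PRDM1 (Blimp-1) is among its targets. When a B cell becomes a plasma cell, PRDM1 in turn shuts off the B cell programme, and the cell takes up the machinery of antibody secretion. Hodgkin lymphoma cells derive from germinal centre B cells that have lost much of their B cell programme, and BATF3, a basic leucine zipper factor that pairs with JUN proteins, is abundant in them. The comparison asks whether these transcripts differ once BATF3 is reduced.

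BATF-JUN pairs bind the AP-1 core, which was searched here as TGANTCA, with any base at N. The RefSeq promoter table (GRCh38.p14) held 10 windows for 7 of the 9 genes, and the 250 bases before each start were searched on both strands. This pattern occurred in 4 of the 10 windows, in 4 genes, against 6.57% of all 35116 windows of that length. These 4 windows are shown because they match the pattern searched for the lowered factor, written 5′ to 3′ on the gene's strand with the match in capitals. The middle base of the match was C in PRDM1, G in BCL6 and JCHAIN and A in CD27. Both the count and the share take in every middle base, and whether the factor binds each form was not tested. For PRDM1 and BCL6 each, the match lay in the window of the start further downstream of the 2 in the table. Its bases lay 42 to 36 before that start in PRDM1, 77 to 71 in BCL6, 175 to 169 in JCHAIN and 236 to 230 in CD27.
PRDM1, chr6:106098691-106098940, plus strand: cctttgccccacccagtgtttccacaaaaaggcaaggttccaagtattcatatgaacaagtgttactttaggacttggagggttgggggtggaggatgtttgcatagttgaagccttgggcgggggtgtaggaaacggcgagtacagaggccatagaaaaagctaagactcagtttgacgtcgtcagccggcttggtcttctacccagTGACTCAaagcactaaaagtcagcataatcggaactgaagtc
BCL6, chr3:187736502-187736751, minus strand: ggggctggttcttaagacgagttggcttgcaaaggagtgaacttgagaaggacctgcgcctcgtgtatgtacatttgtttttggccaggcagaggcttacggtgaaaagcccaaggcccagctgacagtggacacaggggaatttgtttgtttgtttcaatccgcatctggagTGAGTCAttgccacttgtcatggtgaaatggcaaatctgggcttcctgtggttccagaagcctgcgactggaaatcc
JCHAIN, chr4:70666509-70666758, minus strand: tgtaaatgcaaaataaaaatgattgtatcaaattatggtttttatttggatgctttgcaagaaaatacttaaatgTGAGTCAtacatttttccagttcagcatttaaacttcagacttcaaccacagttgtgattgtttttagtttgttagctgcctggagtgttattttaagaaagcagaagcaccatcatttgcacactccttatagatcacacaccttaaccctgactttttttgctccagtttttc
CD27, chr12:6443642-6443891, plus strand: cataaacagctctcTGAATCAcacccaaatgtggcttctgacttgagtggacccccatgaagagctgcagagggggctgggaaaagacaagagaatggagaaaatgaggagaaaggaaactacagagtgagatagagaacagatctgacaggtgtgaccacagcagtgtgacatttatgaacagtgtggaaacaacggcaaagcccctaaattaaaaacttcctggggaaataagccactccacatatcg
A pair of other motifs gave fewer matches. The core TTCNNNGAA, read by STAT factors and close to the site of BCL6, occurred in 1 of the 10 windows, that of the other BCL6 start, where TTCCGAGAA lay 28 to 20 bases before it, against 6.57% of all windows. The pair of GAAA repeats with 2 bases between them, read by IRF factors and PRDM1, occurred in 0 of the 10 windows and in 3.02% of all windows. These are matches of letters, and no binding was measured. The sources used here do not say which start a probe set reads.

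Before the 9 genes are described, the siRNA, the arrays and the cell identity were checked. BATF3 itself was lower on each BATF3 siRNA array, at 10.77 ± 0.088 against 11.97 ± 0.10 (log2, SD, n = 3 each; limma adjusted p = 0.00673). Array background was read from the background probe sets, whose highest value per array was 6.68 to 7.32, and from the GC-rich ones among them, whose probes hold 20 to 25 such bases. The latter read 5.92 and 5.98 on BATF3 siRNA replicates 2 and 3 and 6.46 to 6.49 on the other 4 arrays. Of 7 Hodgkin lymphoma markers, 6 (TNFRSF8, FSCN1, CCL17, CD40, TRAF1 and JUNB) lay above the highest background probe set on all 6 arrays and CCL22 on none. Of 6 B cell markers, CD79B and PAX5 did, while MS4A1, CD79A, CD22 and EBF1 lay under it throughout. All 6 T and NK cell markers and all 6 myeloid markers lay under it on every array. The summed level (linear scale) of the T and NK list ran from 151 to 165.6 after BATF3 siRNA and from 130.8 to 144.7 after control siRNA. The ranges of the other marker lists overlapped, at 18840 to 19480 against 18610 to 19940 for Hodgkin cells, 538.8 to 581.8 against 501.4 to 605.9 for B cells and 69.5 to 80.5 against 64.1 to 81.9 for myeloid cells.

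None of the 9 genes passed the threshold of the fit over all genes (limma, Benjamini-Hochberg adjusted p under 0.05), where 0.0164% of all genes were called. At an unadjusted p under 0.05 there were 3 of 9 (BCL6, JCHAIN and CD38), or 33.3%, beside 7.15% of all genes. The 3 arrays of one siRNA did not overlap the 3 of the other for BCL6, ELL2 and JCHAIN, again 33.3%, beside 12.1% of all genes. All 3 were higher after BATF3 siRNA. The log2 difference was positive for 8 of 9 genes, against 49.0% of all genes, with a median of 0.098 against −0.0027 over all genes. With the mean of all probe sets, or the most variable one, it was positive for 7 of 9. In these bulk samples a change in how many cells make a transcript and a change in RNA per cell cannot be told apart. PRDM1, BCL6 and ELL2 were above the highest background probe set on all 6 arrays and SDC1 on 3 arrays. JCHAIN, MZB1, TNFRSF17, CD27 and CD38 were above it on none, so for these 5 the levels may not be told from background and the size of a difference is uncertain.

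**Figure D1:**
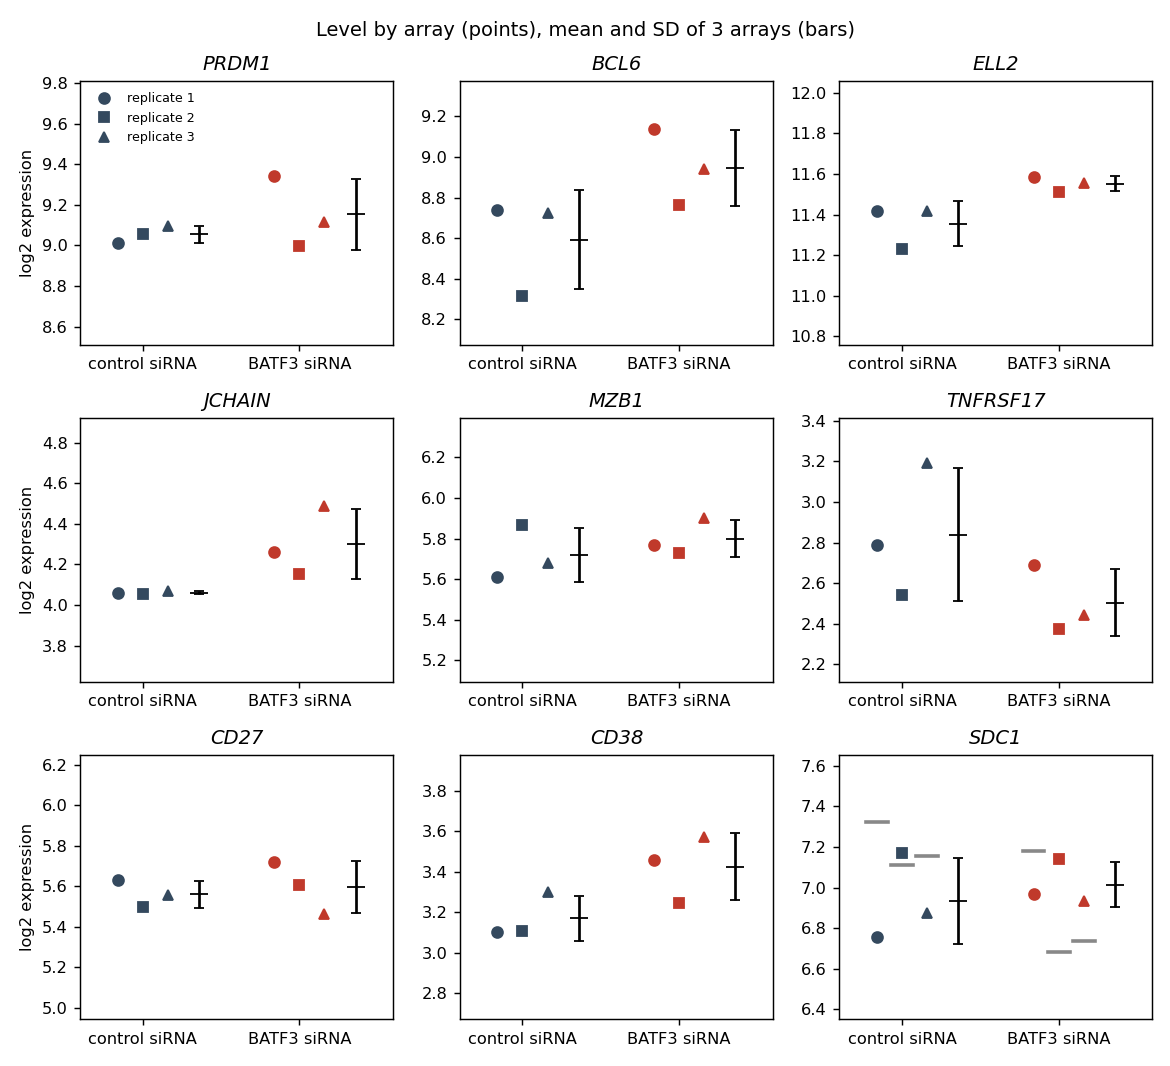
The log2 level of each of the 9 genes on every array (vertical axis; each panel has its own range), for 3 control siRNA arrays (dark) and 3 BATF3 siRNA arrays (red), with symbols for the replicate number and black bars for the mean and SD. Grey dashes in the SDC1 panel mark the highest background probe set of each array. The groups do not overlap for BCL6, ELL2 and JCHAIN, and overlap for the other 6 genes.

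BCL6 is the transcriptional repressor of the germinal centre B cell. Its log2 level was 9.14, 8.76 and 8.94 on BATF3 siRNA replicates 1, 2 and 3, and 8.74, 8.31 and 8.73 on the control arrays. Each BATF3 siRNA array was above each control array, but the lowest of the former and the highest of the latter were close, and control replicate 2 lay well under the other two. The difference was 0.35 (SE 0.14, 95% confidence interval 0.036 to 0.67), or 1.28 times the control level. It did not pass (limma adjusted p = 0.663). An exact permutation of the 6 arrays (two-sided) returned p = 0.1, and this design can give no smaller value. Of all genes, 4.91% had a smaller p in the fit. Without control siRNA replicate 2 the difference was 0.21 (limma adjusted p = 0.684). With the array background as a block, which leaves BATF3 siRNA replicate 1 against the controls, it was 0.54 (limma adjusted p = 0.831).

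BCL6 was read by 5 probe sets, which pointed the same way. All 5 were higher after BATF3 siRNA, by 0.17 to 0.35 on the log2 scale, and 4 of them were above the highest background probe set on every array. Their groups did not overlap for 2 of the 5, namely 11720746_s_at, which stands for the gene, and 11759322_at, which was under the highest background throughout. Probe set 11720745_a_at read 8.51, 8.28 and 8.60 after BATF3 siRNA and 8.22, 7.95 and 8.28 after control siRNA, a difference of 0.31 (SE 0.12; limma adjusted p = 0.663 over all probe sets). There BATF3 siRNA replicate 2 lay just under control replicate 3, so the groups overlapped. Over all probe sets 0.0101% were called and 12.2% did not overlap between groups, and of the 24 probe sets of the 9 genes 0 were called (5 probe sets in all were) and 9 did not overlap. The probe sets of a gene read the same RNA and are not independent of each other.

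PRDM1, the repressor that drives plasma cell differentiation, gave different answers from different probe sets. Probe set 11752207_a_at, which has the highest mean and stands for the gene, read 9.34, 8.999 and 9.12 after BATF3 siRNA and 9.01, 9.06 and 9.10 after control siRNA. Here BATF3 siRNA replicate 1 was the highest array and replicate 2 the lowest, so the groups overlapped. The difference was 0.098 (SE 0.11, 95% confidence interval −0.14 to 0.33; limma adjusted p = 0.898; two-sided exact permutation p = 0.5). Without BATF3 siRNA replicate 1 it was 0.0022 (limma adjusted p = 0.995), and with the array background as a block, which rests on that replicate, it was 0.29 (limma adjusted p = 0.890).

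A pair of other PRDM1 probe sets separated the groups. Probe set 11726218_a_at read 9.04, 9.08 and 9.25 after BATF3 siRNA and 8.89, 8.58 and 8.75 after control siRNA, and 11731942_a_at read 8.39, 8.22 and 8.34 against 8.14, 7.71 and 7.90. In both, every BATF3 siRNA array was above every control array, and control replicate 2 was the lowest. The differences were 0.38 (SE 0.11) and 0.40 (SE 0.12), with limma adjusted p = 0.546 and 0.572 over all probe sets, so neither passed. Exact permutation (two-sided) returned p = 0.1 for each. With the array background as a block they were 0.30 and 0.48 (limma adjusted p = 0.924 and 0.843), and leaving out any 1 array they lay between 0.30 and 0.52. These probe sets were singled out after their values were seen. Of the remaining probe sets, 11726217_a_at stood at 0.15 with overlapping groups, and 11760748_at at −0.11, under the highest background on every array. The mean of all 5 PRDM1 probe sets gave a difference of 0.18 (limma adjusted p = 0.612).

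**Figure D2:**
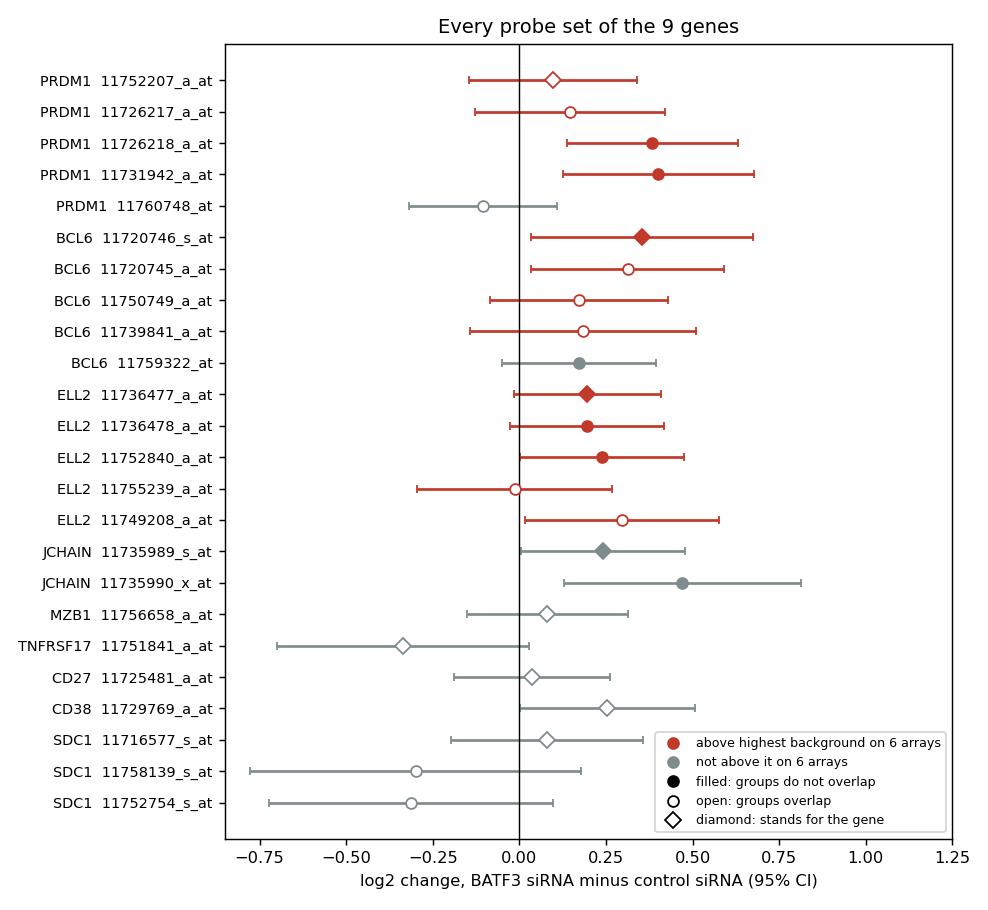
The log2 difference, BATF3 siRNA minus control siRNA (horizontal axis), of each of the 24 probe sets of the 9 genes, with 95% confidence intervals from the limma fit of all probe sets. Red marks probe sets above the highest background on all 6 arrays, filled symbols mark groups that do not overlap, and diamonds mark the probe set that stands for its gene. Differences run from −0.34 (TNFRSF17) to 0.47 (a JCHAIN probe set), and 19 of 24 are positive.

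ELL2 encodes a transcription elongation factor that in plasma cells favours the secreted form of the immunoglobulin heavy chain. Its level was 11.59, 11.51 and 11.56 after BATF3 siRNA and 11.42, 11.23 and 11.42 after control siRNA. The BATF3 siRNA arrays were tightly grouped and all above the controls, and the widest gap within a group was that of control replicate 2. The difference was 0.20 (SE 0.091, 95% confidence interval −0.0099 to 0.40), or 1.15 times the control level (limma adjusted p = 0.718; two-sided exact permutation p = 0.1). Of its 5 probe sets, all above the highest background on every array, 4 were positive with differences of 0.20 to 0.30. The exception, 11755239_a_at, stood at −0.013. Without control siRNA replicate 2 the ELL2 difference was 0.13 (limma adjusted p = 0.712).

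JCHAIN encodes the joining chain that links IgM and IgA into polymers, and is made by antibody-secreting cells. Its level was 4.26, 4.15 and 4.49 after BATF3 siRNA and 4.06, 4.05 and 4.07 after control siRNA. The groups did not overlap, the control arrays being nearly identical and BATF3 siRNA replicate 3 the highest. The difference was 0.24 (SE 0.10, 95% confidence interval 0.0088 to 0.47; limma adjusted p = 0.689; two-sided exact permutation p = 0.1). Without BATF3 siRNA replicate 3 it was 0.15 (limma adjusted p = 1), and the gene was then no longer at an unadjusted p under 0.05. Its other probe set, 11735990_x_at, whose suffix marks probes that can match other transcripts, read 3.95, 3.48 and 3.40 against 3.04, 3.06 and 3.32, a difference of 0.47 (SE 0.15; limma adjusted p = 0.586). On every array both were below the highest background probe set and above the mean of the AT-rich ones (3 to 15 GC bases a probe), which was 2.06 to 2.20. Which of these backgrounds applies to the JCHAIN probes was not tested.

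MZB1, a chaperone of the endoplasmic reticulum that helps antibody assembly, showed no separation. It read 5.77, 5.73 and 5.90 after BATF3 siRNA and 5.61, 5.87 and 5.68 after control siRNA. The groups interleaved, at a difference of 0.080 (SE 0.10, 95% confidence interval −0.15 to 0.31; limma adjusted p = 0.916). It was 0.025 without control siRNA replicate 1 and 0.15 without control siRNA replicate 2 (limma adjusted p = 0.974 and 0.704).

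Among the surface markers, TNFRSF17 (BCMA), the receptor through which BAFF and APRIL keep plasma cells alive, had a negative difference. It read 2.69, 2.38 and 2.44 after BATF3 siRNA and 2.79, 2.54 and 3.19 after control siRNA. Control replicate 3 stood above the other 5 arrays, and the groups overlapped. The difference was −0.34 (SE 0.16, 95% confidence interval −0.70 to 0.025; limma adjusted p = 0.731). It was −0.16 without control siRNA replicate 3, −0.49 without control siRNA replicate 2 and −0.60 with array weights (limma adjusted p = 0.993, 0.529 and 0.105), and −0.15 with the array background as a block (limma adjusted p = 1). These levels are close to the lowest background, so a fold is not given.

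CD38, an ectoenzyme that consumes NAD and marks germinal centre and plasma cells, read 3.46, 3.25 and 3.57 after BATF3 siRNA and 3.10, 3.11 and 3.30 after control siRNA. BATF3 siRNA replicate 2 lay just under control replicate 3, so the groups overlapped, at a difference of 0.25 (SE 0.11, 95% confidence interval 0.0074 to 0.50; limma adjusted p = 0.689). CD27, a co-stimulatory receptor of memory B and plasma cells, read 5.72, 5.61 and 5.47 against 5.63, 5.50 and 5.56. The 6 arrays were mixed in order, at a difference of 0.037 (SE 0.097, 95% confidence interval −0.18 to 0.26; limma adjusted p = 0.962).

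SDC1 encodes syndecan-1 (CD138), the heparan sulfate proteoglycan by which plasma cells are recognised. It read 6.97, 7.14 and 6.93 after BATF3 siRNA and 6.76, 7.17 and 6.87 after control siRNA, so that replicate 2 was the highest in both groups. The difference was 0.081 (SE 0.12, 95% confidence interval −0.19 to 0.35; limma adjusted p = 0.930). SDC1 was above the highest background probe set on BATF3 siRNA replicates 2 and 3 and control replicate 2. On the first pair that background was itself lower, at 6.68 and 6.73. The other SDC1 probe sets had the opposite sign, at −0.30 and −0.31 (SE 0.21 and 0.18), so no direction can be given for this gene.

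The wider programmes around these genes were described from 7 related lists, whose members were counted in the same limma fit over all genes. None of them held a called gene. At an unadjusted p under 0.05 there were 2 of 19 plasma cell genes, 6 of 18 germinal centre genes, 1 of 6 genes that PRDM1 is known to repress, 4 of 14 that BCL6 is known to repress, 2 of 14 corepressors of PRDM1 and BCL6, 3 of 17 ligands and partners of the surface markers and 1 of 11 genes of the ELL2 complex. The share over all genes was 7.15%. In the same list order, the groups did not overlap for 4, 7, 2, 2, 2, 3 and 1 genes, beside 12.1% of all genes. The genes named below have the smallest p of their list, so their lack of overlap follows largely from that choice. Median differences ran from −0.092 for the ligands and partners to 0.039 for the genes repressed by BCL6, against −0.0027 over all genes.

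The plasma cell list had 12 of 19 positive differences and a median of 0.038. Its members with the smallest p were EAF2, a partner of ELL proteins, at 8.81 ± 0.075 against 8.32 ± 0.18 (SD, n = 3 each), a difference of 0.49 (limma adjusted p = 0.404), and PIM2, a survival kinase, at 8.25 ± 0.13 against 7.83 ± 0.15, a difference of 0.42 (limma adjusted p = 0.459). In both genes the groups did not overlap and every array was above the highest background. EAF2 also led the ELL2 complex, where 7 of 11 differences were positive, followed by MLLT1, a subunit of the super elongation complex, at −0.27 with overlapping groups.

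The germinal centre list was divided, with 10 of 18 positive differences and a median of 0.015. BACH2, a repressor that restrains plasma cell differentiation, read 5.94 ± 0.23 against 6.51 ± 0.10 (SD, n = 3 each; difference −0.57; limma adjusted p = 0.404), under the highest background on every array. RGS13, a regulator of G protein signalling in germinal centre B cells, read 7.39 ± 0.045 against 6.89 ± 0.26 (difference 0.50; limma adjusted p = 0.448), above that background on 3 arrays. These were the 3 BATF3 siRNA arrays, and on replicates 2 and 3 of that group the background was itself lower, at 6.68 and 6.73. The groups did not overlap for either gene.

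Genes known as targets of the 2 repressors were mixed in sign. Of those repressed by BCL6, 8 of 14 were positive. CDKN1A, the cell cycle inhibitor p21, stood at 0.79 (8.03 ± 0.30 against 7.24 ± 0.054, SD, n = 3 each) and S1PR1, a receptor for egress from lymphoid tissue, at −0.77 (8.93 ± 0.11 against 9.70 ± 0.28), both with limma adjusted p = 0.226 and with groups that did not overlap. CDKN1A was under the highest background on control replicate 1 (7.22 against 7.32) and close above it on the other control arrays. S1PR1 was above it on all 6 arrays. Of the genes repressed by PRDM1, 2 of 6 were positive. BCL6 had the smallest p there, followed by SPIB, a B cell transcription factor, at −0.25 with overlapping groups and under the highest background on every array.

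Corepressors had 5 of 14 positive differences. TLE3, a Groucho family corepressor, stood at −0.42 (6.94 ± 0.19 against 7.36 ± 0.12, SD, n = 3 each; limma adjusted p = 0.493), and EHMT2, the histone methyltransferase G9a, at −0.27 (8.68 ± 0.10 against 8.96 ± 0.065; limma adjusted p = 0.593). In both genes every BATF3 siRNA array was below every control array. TLE3 was above the highest background on 5 arrays and EHMT2 on all 6. Ligands and partners of the surface markers had 7 of 17 positive differences, led by 2 relatives of SDC1. SDC2 stood at 0.49 and SDC3 at −0.25 (limma adjusted p = 0.337 and 0.638), without overlap between groups and under the highest background on every array.

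**Figure D3:**
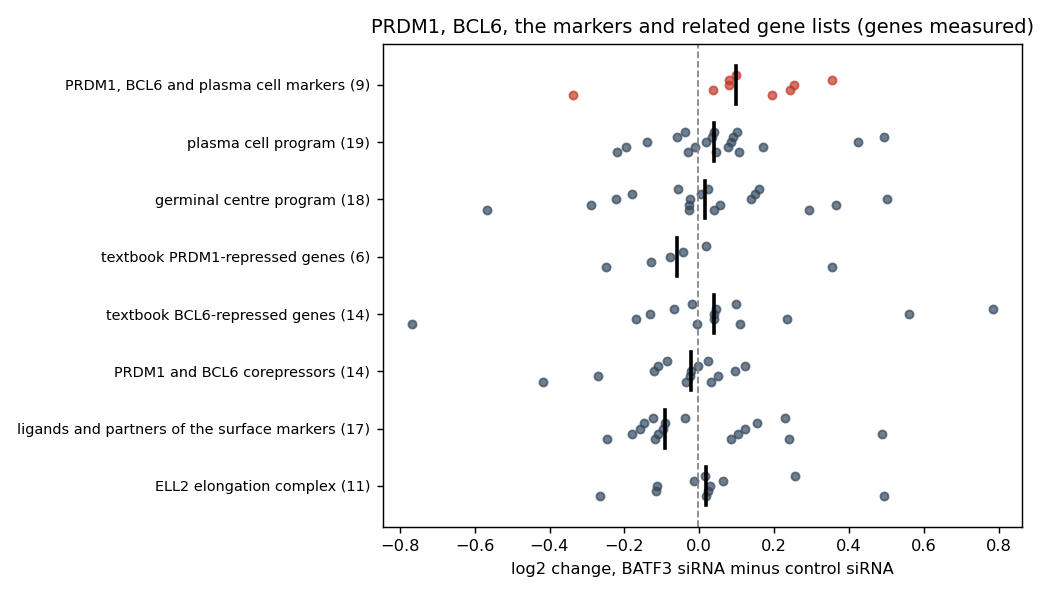
The log2 difference, BATF3 siRNA minus control siRNA (horizontal axis), of each measured gene of the 9-gene set (red) and of 7 related lists (dark), with the number of genes in brackets, black bars for the median and a dashed line for the median of all genes. Every median lies between −0.092 and 0.098, and no gene shown passed the threshold.

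The genes whose pattern over the 6 arrays was most like that of PRDM1 (Pearson correlation, as a description with no test) were CFAP107, FOCAD and CDC42BPA, at 0.999, 0.985 and 0.984. Those most like BCL6 were ZNF432, ALOX5AP and RBM48, at 0.994, 0.991 and 0.991. Among the 18243 genes compared, 34 exceeded 0.95 with PRDM1 and 58 with BCL6. ELL2 was among the latter, at 0.959, the highest value for any pair of the 9 genes, sharing with BCL6 its lowest value on control replicate 2. Both genes were higher on every BATF3 siRNA array, so this correlation includes the difference between the groups. CFAP107, ZNF432 and ALOX5AP lay under the highest background probe set on all 6 arrays. The points share their arrays and their normalization.

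**Figure D4:**
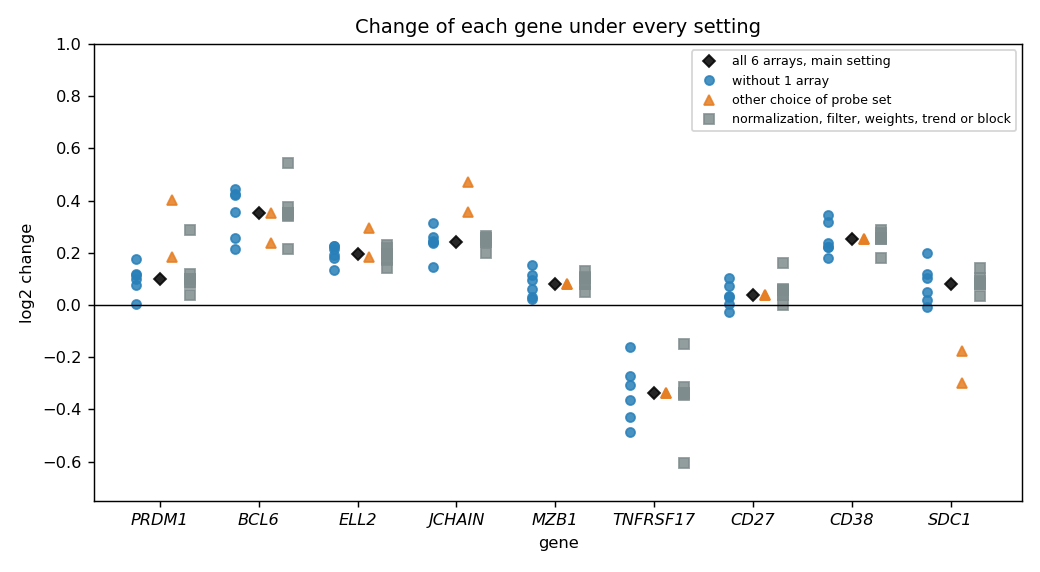
The log2 difference (vertical axis) of each of the 9 genes over all 6 arrays (black diamonds), without each array in turn (blue circles), with another choice of probe set (orange triangles) and under other normalizations, filters, weights, variance models or blocks (grey squares). BCL6 stays between 0.21 and 0.54 and ELL2 between 0.13 and 0.30, while SDC1 and CD27 take both signs.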

How the data were processed

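Total RNA of 6 samples was hybridised as biotin-labelled cRNA to Affymetrix PrimeView arrays. The deposited table held 1 log2 value per probe set and array, with the base of the logarithm inferred from the range. Per the submitters' processing notes the affy package was used. The sources used here do not give the normalization or summarization. Values were used as deposited. Probe sets with 1 annotated gene were kept (45278 of 49393, after 102 controls), and the probe set with the highest mean stood for its gene, leaving 18244 genes. Differences, BATF3 siRNA minus control siRNA, were fitted in limma 3.58.1 (R 4.3.3; moderated by eBayes, two-sided, no covariate), with Benjamini-Hochberg adjustment over all genes, or over all 49393 probe sets for single probe sets. The fit was tested on simulated data. The number of arrays limits the precision (median SE 0.107). The 9 genes, the 7 related lists, the 4 marker lists and the tests were chosen with earlier results of these data known. List members without a probe set of their own were not analysed here. The text names all 9 genes, BATF3, from each list up to 3 called genes or the 2 with the smallest p, and the 3 genes most like PRDM1 and BCL6. Alternatives covered normalization, filter, probe set choice, weights, variance model, blocks and leaving out each array. The alternatives for single PRDM1 probe sets were chosen after seeing the data.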

Additional observations from a re-analysis of the deposited data

How the results depend on the processing

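None of the 9 genes was called by limma under any of the 17 alternatives. Over them the adjusted p ran from 0.315 to 1 for BCL6, 0.333 to 1 for ELL2, 0.604 to 1 for PRDM1 and 0.105 to 1 for TNFRSF17. PRDM1, BCL6, ELL2, JCHAIN, MZB1, TNFRSF17 and CD38 kept their sign wherever they were measured. SDC1 turned to −0.18 with the mean of all probe sets and −0.30 with the most variable one, and without 1 array ran from −0.0077 to 0.20. CD27 then ran from −0.025 to 0.10. The filter on dim genes kept 4 of the 9 genes (PRDM1, BCL6, ELL2 and SDC1), and all 4 were positive. Leaving out 1 array, the genes at an unadjusted p under 0.05 numbered 0 (without BATF3 siRNA replicate 3) to 3, and those whose groups do not overlap 3 to 6 (without control siRNA replicate 2). With an array fewer, groups separate more easily. The matching shares over all genes were not counted without 1 array, so no result about the 9 genes is read from these counts. In the 7 related and 4 marker lists, 185 of 187 counts of called genes were as reported. The exceptions came with array weights, which called 1 gene repressed by BCL6, S1PR1, and 1 partner, SDC2. Over all genes 3 were called, against 9 with the dim filter, 5 with the most variable probe set, 25 with array weights, 12 with an intensity trend and robust prior, 0 with the background block and 0 to 2 without 1 array. The cause was not tested. Deviations from the group mean correlated at 0.029, 0.15 and −0.026 between same-numbered arrays and at −0.10 to 0.097 between differently numbered ones. The labels give no pairing, and whether same-numbered arrays were handled together was not tested. With the replicate block 3 genes were called, and BCL6 stood at 0.35 (SE 0.10 against 0.14 without the block, limma adjusted p = 0.516). Signal over background limits JCHAIN, MZB1, TNFRSF17, CD27, CD38 and SDC1.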
